A study of Homo sapiens with 16 samples.

Results

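The response to estrogen was followed in 9 genes of the Notch pathway. They are the receptors NOTCH1, NOTCH2 and NOTCH3, the ligands JAG1 and JAG2, and the target transcription factors HES1, HES4, HEY1 and HEY2. The set was listed by gene name, with earlier results of these data known, and makes up 9 of the 26364 genes in each count table. Bulk RNA-seq came from a pair of established human cancer lines that carry estrogen receptor: Ishikawa, an endometrioid adenocarcinoma line, and T-47D, a ductal carcinoma line of the breast. Both lines were kept in phenol-red-free, hormone-deprived medium for 3 days according to the sample records, then given 10 nM 17β-estradiol (E2) for 2, 4 or 8 h, with vehicle as the 0-h group. The paper's general culture methods give a longer time in such medium. Each of the 4 time points had 2 replicates per line, giving 8 libraries per line and 16 in all. Each disease is represented by a single line, so the values describe these lines.

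Libraries held 41177912 to 58918642 counts in Ishikawa cells and 41223813 to 64148903 in T-47D cells. All 7 markers listed for Ishikawa cells were above 1 CPM (counts per 1000000, on library sizes scaled by the TMM method) in that line, as were all 8 luminal markers in T-47D cells. The lists were not exclusive. Before E2, 7 of the 8 luminal markers also had means above 1 CPM in Ishikawa cells, and 4 of the 7 Ishikawa markers in T-47D cells. KRT7, on the Ishikawa list, was higher in T-47D cells (235 to 249 CPM against 23.0 to 25.0). PAX8 was at or below 0.0485 CPM and SOX17 and EMX2 at 0 in T-47D cells, and GATA3 was at or below 0.0869 in Ishikawa cells. Summed leukocyte markers stayed at or below 3.88 CPM in every library. Summed endothelial markers were 8.34 to 8.82 CPM before E2 and 5.32 to 7.33 at 8 h in Ishikawa cells. Most of this was VWF (8.17 to 8.59 before E2 and 5.16 to 7.10 at 8 h). In T-47D cells the endothelial sum stayed at or below 0.208. Summed basal markers ran from 49.4 to 80.5 CPM in Ishikawa cells and from 4.26 to 7.44 in T-47D cells, with the lowest value at 4 h and 8 h, respectively. Of the 5 fibroblast markers, DCN and LUM were at 0 in Ishikawa cells before E2. COL1A1 made up most of the summed level, with 251 to 277 of 259 to 284 CPM before E2 and 153 to 204 of 157 to 209 at 4 h, and in T-47D cells the sum was 92.1 to 101 before E2 and 76.0 to 82.0 at 8 h. Their part in the results was not tested. Known E2 response genes (GREB1, PGR, TFF1 and CXCL12, summed) went from 10.0 to 10.4 CPM before E2 to between 38.3 and 50.4 at 8 h in Ishikawa cells, where TFF1 and CXCL12 were at 0, and from 775 to 779 to between 2137 and 2265 in T-47D cells. The Ishikawa 4-h and 8-h libraries were not separated by their labels. The root mean square difference in log2 CPM was 0.391 between the 4-h replicates and 0.353 between the 8-h replicates, against 0.329 to 0.378 across the labels. For the Ishikawa genes described, values with these 4 later libraries as 1 group are therefore also given. The sample records do not say whether replicates came from separate cultures, so p-values measure the spread between these libraries only. In bulk RNA, fewer expressing cells and less RNA per cell cannot be told apart.

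Notch signaling passes between touching cells. A Jagged or Delta-like ligand on one cell binds a Notch receptor on its neighbor, proteases then release the receptor's intracellular domain, and this domain joins RBPJ and Mastermind proteins on DNA to switch on HES and HEY genes. HES and HEY proteins are basic helix-loop-helix repressors, and HES1 also represses its own promoter. In the epithelia of breast and endometrium the pathway is known for its part in cell fate and differentiation.

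The gene starts of the HES and HEY targets were examined for the letters that RBPJ reads, because these link the receptors to the targets described next. RefSeq promoter sequences (250 bases before to 50 after the start, from GRCh38.p14) were searched on both strands for GTGGGAA and placed on GRCh37, the same build as hg19, by exact match. The NOTCH2 sequence was searched but had no exact match there and was not placed. HEY1 was not examined. Of the 8 promoters searched, HES4, HES1 and HEY2 held these letters, and among all 35116 promoters of this length 6.25% did. The stretches are shown 5′ to 3′ along each gene, with the 7 matching letters in capitals. These are RefSeq starts, and the windows of HEY2 (wholly) and of HES4 and JAG2 (in part) lie inside the GENCODE gene spans given with each gene. The HES4 match began 77 bases before the RefSeq start, the HES1 match 85 bases before it, and the HEY2 matches 213 and 4 bases before it, the more distant one on the opposite strand.
HES4 (chr1:935537-935565, minus strand): ctggggcgagtGTGGGAAagaatgcggag
HES1 (chr3:193853841-193853869, plus strand): tgaaagttactGTGGGAAagaaagtttgg
HEY2, far (chr6:126070554-126070582, plus strand): ccgcggccgcgTTCCCACgcctcggctgg
HEY2, near (chr6:126070763-126070791, plus strand): agagttgcggcGTGGGAAagagccgctag

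Among the 9 genes, HES1 and JAG1 had the largest decreases in T-47D and Ishikawa cells, respectively, so the 250 bases before their RefSeq starts are shown in full. The RBPJ letters are in capitals, and the JAG1 stretch holds none.
HES1 (chr3:193853687-193853936, plus strand): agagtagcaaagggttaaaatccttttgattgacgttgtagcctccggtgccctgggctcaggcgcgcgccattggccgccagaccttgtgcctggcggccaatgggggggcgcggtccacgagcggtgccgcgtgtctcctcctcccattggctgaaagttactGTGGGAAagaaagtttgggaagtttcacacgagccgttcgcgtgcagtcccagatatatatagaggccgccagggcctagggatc
JAG1 (chr20:10654648-10654897, minus strand): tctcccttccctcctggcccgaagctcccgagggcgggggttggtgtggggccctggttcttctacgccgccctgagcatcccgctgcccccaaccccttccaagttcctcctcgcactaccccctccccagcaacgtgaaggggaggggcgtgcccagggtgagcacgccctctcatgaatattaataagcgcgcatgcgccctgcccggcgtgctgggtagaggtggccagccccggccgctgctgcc

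The same windows were searched for GGTCA, the letters of 1 arm of an estrogen response element. NOTCH2 and JAG2 held them, as did 37.4% of all promoters. The full element, with both arms 3 bases apart, was in none of the 8 windows and in 0.057% of all promoters. The N box CACNAG, a site class that HES proteins can bind, was in the NOTCH1, NOTCH2, NOTCH3 and HES1 windows and in 38.0% of all promoters. A match describes these letters only and says nothing of whether a factor was bound.

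Before E2, the lines differed in the order of these genes by level. To compare levels between genes, CPM was divided by the length of each gene's merged exons. In Ishikawa cells, JAG1 (36.5 ± 0.497 CPM per kb, SD, n = 2) and HES1 (35.2 ± 1.64) were the most abundant, and their libraries overlapped. NOTCH3 (26.6 ± 1.71) and JAG2 (26.5 ± 1.93) came next and also overlapped, followed by NOTCH2 (16.2 ± 0.0578) and NOTCH1 (16.2 ± 0.698), which overlapped as well, and HES4 (12.0 ± 1.42). HEY2 (0.421 ± 0.0136) and HEY1 (0.276 ± 0.0134) were far below the rest. When the longest transcript served as the length, JAG1 (57.2 CPM per kb) and HES1 (46.0) did not overlap, nor did NOTCH2 (23.8) and NOTCH1 (20.6). JAG2 (29.3) then stood above NOTCH3 (28.9), though their libraries overlapped.

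In T-47D cells, NOTCH3 led with 36.7 ± 1.87 CPM per kb (SD, n = 2). HES4 (29.1 ± 0.204) and NOTCH2 (28.8 ± 1.88) followed and overlapped, then HES1 (22.3 ± 1.31), JAG2 (8.20 ± 0.571) and NOTCH1 (2.68 ± 0.0283). JAG1 (0.736 ± 0.0409) and HEY2 (0.708 ± 0.134) overlapped near the bottom, and HEY1 had 0.0262 ± 0.0255. With the longest transcript as the length, NOTCH2 (42.2 CPM per kb) stood above NOTCH3 (39.8) in T-47D cells, though their libraries overlapped. T-47D cells thus carried NOTCH2 and NOTCH3 RNA with little RNA for JAG1, whereas JAG1 headed the list in Ishikawa cells.

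**Figure D1:**
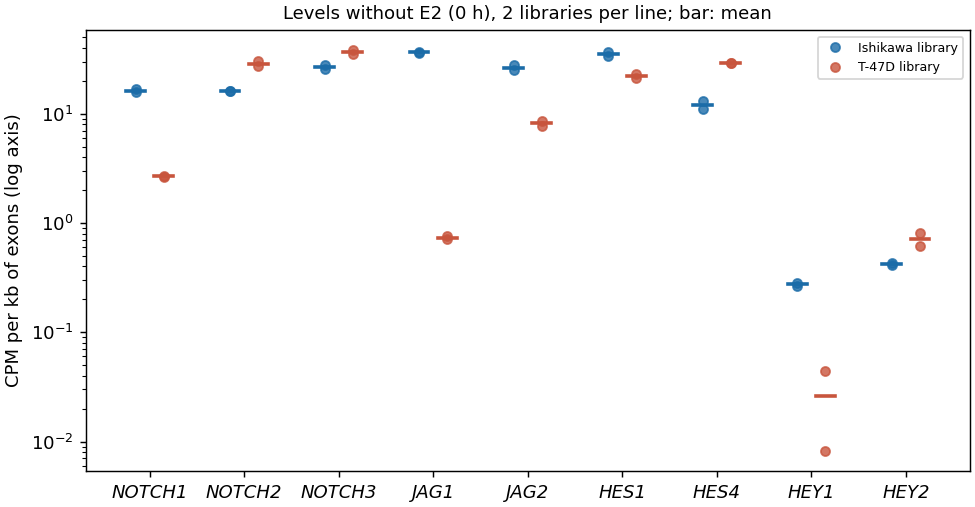
Levels of the 9 genes without E2, as CPM per kb of merged exons on a log axis, with 1 point per library and a bar at the mean of 2 libraries, in blue for Ishikawa and red for T-47D. JAG1 stood at 36.5 CPM per kb in Ishikawa and 0.736 in T-47D cells, the widest gap between the lines, whereas NOTCH2, NOTCH3, HES4 and HEY2 were higher in T-47D cells.

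All 9 genes differed between the lines at 0 h by edgeR's quasi-likelihood test over the 16 libraries, where 81.9% of the 17090 genes tested did. The ligand JAG1 had the widest difference. On the scale of the joint fit, its Ishikawa replicates held 330 and 334 CPM and its T-47D replicates 7.30 and 6.71, a 47.3-fold lower level in T-47D cells (log2 difference of -5.56, SE 0.08, edgeR adjusted p = 4.34e-22). JAG2 was lower by 1.62 on the log2 scale, at -1.62 (SE 0.08, edgeR adjusted p = 1.11e-13). Among the receptors, NOTCH1 was 5.77-fold lower in T-47D cells (log2 difference of -2.53, SE 0.08), whereas NOTCH2 was 1.86-fold higher (0.90, SE 0.05) and NOTCH3 1.45-fold higher (0.53, SE 0.10). Of the targets, HES4 was 2.54-fold higher in T-47D cells (1.34, SE 0.11) and HES1 was 1.51-fold lower (-0.59, SE 0.07). HEY1 was also lower, with 72 and 68 counts in Ishikawa cells against 2 and 10 in T-47D cells. HEY2 was higher in T-47D cells by 0.82 (SE 0.23, edgeR adjusted p = 0.00324), a call that was lost without T-47D 0 h replicate 1 (0.61, edgeR adjusted p = 0.0595). Line, culture and handling cannot be told apart in these differences.

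After E2, 3 of the 9 genes fell at 2 h in Ishikawa cells and 4 at both later times, and none passed as a rise at any of these times. Among all 15787 genes tested in that line, 1.74%, 6.6% and 10.1% fell at these times, and 2.61%, 7.66% and 12% rose. With the 4-h and 8-h Ishikawa libraries as 1 group, HEY2 also passed, as a rise of 0.65 (edgeR adjusted p = 0.0378). In T-47D cells, 2 of the 8 genes tested fell at 2 h and at 4 h, and 4 fell at 8 h, with 1 gene rising at each time. Among all 15594 genes tested in T-47D cells, 4.4%, 10.4% and 14.3% fell at 2, 4 and 8 h, and 4.9%, 11.1% and 15.4% rose. As the 9 genes were chosen with earlier results of these data known, these counts and shares are descriptions. Taken over the 9 genes, the median log2 fold changes at 2, 4 and 8 h were -0.17, -0.08 and -0.10 in Ishikawa cells. Over the 8 genes tested in the breast line they were -0.14, -0.13 and -0.11. Over all genes tested the medians lay between -0.00943 and 0.00468 in the 6 comparisons. Changes passing the test refer to edgeR's quasi-likelihood test with a Benjamini-Hochberg adjusted p under 0.05 over all genes of the line.

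**Figure D2:**
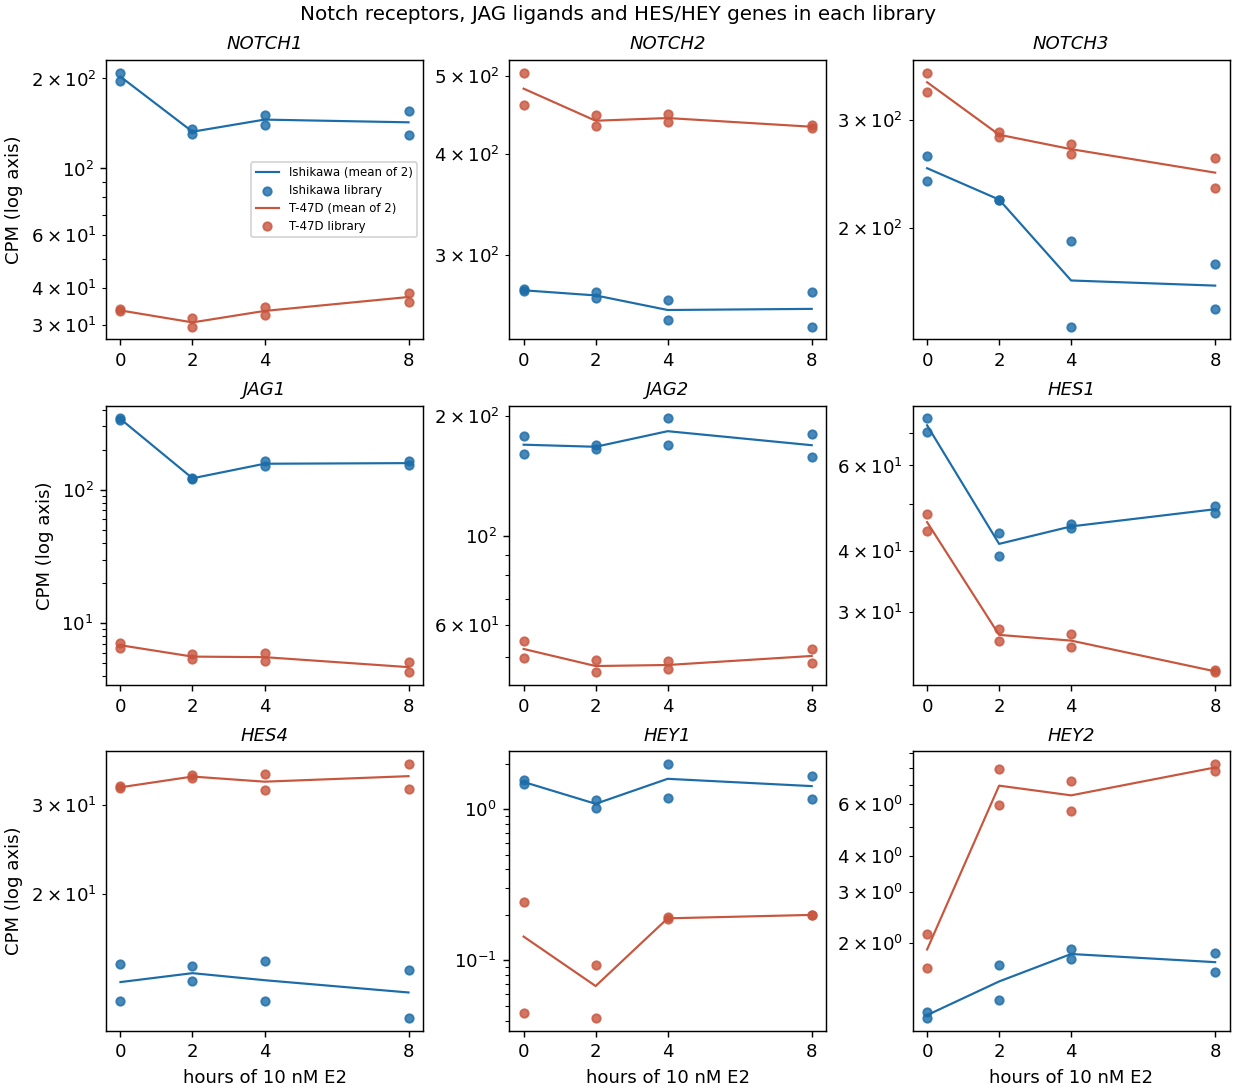
CPM of each gene in each library against hours of 10 nM E2, on log axes that differ between panels, with points for single libraries and lines through the mean of 2 replicates, in blue for Ishikawa and red for T-47D. JAG1 dropped from 339.6 to 122 CPM by 2 h in Ishikawa cells, HES1 was lower in every treated library of both lines, and HEY2 was higher in every treated T-47D library.

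JAG1 (chromosome 20, 10618332 to 10654647, minus strand, hg19) encodes Jagged1, a membrane ligand of the Notch receptors. In Ishikawa cells its replicates held 336 and 343 CPM before E2, then 121 and 123 (2 h), 164 and 150.0 (4 h) and 154 and 163 (8 h). Every treated library was below both untreated ones, with the lowest values at 2 h. JAG1 fell 2.78-fold at 2 h (log2 fold change of -1.48, SE 0.06, edgeR adjusted p = 2.78e-10), 2.17-fold at 4 h (-1.11, SE 0.06) and 2.14-fold at 8 h (-1.10, SE 0.06, edgeR adjusted p = 6.67e-09). It was therefore an Early Down gene by the study's definition, a change already present at 2 h. With the 4-h and 8-h libraries as 1 group, the log2 fold change was -1.11. Between 2 h and 8 h the level rose part of the way back, by 0.38 on the log2 scale (SE 0.06, edgeR adjusted p = 0.00281). That call was lost without Ishikawa 2 h replicate 1 (0.36, edgeR adjusted p = 0.0744) or replicate 2 (0.39, edgeR adjusted p = 0.0558).

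In T-47D cells, JAG1 had 214 to 333 counts per library. The replicates held 7.11 and 6.57 CPM before E2, then 5.87 and 5.37 (2 h), 5.18 and 5.95 (4 h) and 4.28 and 5.09 (8 h). All 6 treated libraries lay below both untreated ones, and only the 8-h change passed the test (-0.55, SE 0.14, edgeR adjusted p = 0.00507), while the 2-h (-0.28, edgeR adjusted p = 0.226) and 4-h values (-0.30, edgeR adjusted p = 0.12) did not. Without T-47D 8 h replicate 1 the 8-h value was -0.42 (edgeR adjusted p = 0.0587). In the annotation, 306 exon bases of JAG1 (3.29%) overlap a long noncoding RNA on the opposite strand, and the strand setting of the counting is not given in the sources used here.

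JAG2 (chromosome 14, 105607319 to 105635161, minus strand) encodes the related ligand Jagged2. Its Ishikawa replicates held 160.5 and 178 CPM before E2, then 165 and 169 (2 h), 197 and 169 (4 h) and 158 and 180 (8 h). The groups overlapped at all 3 times, and the log2 fold changes of -0.02, 0.11 and -0.00491 did not pass the test (SE 0.08 for each), nor did the value of 0.0543 with the later libraries as 1 group. In T-47D cells the replicates held 49.8 and 55.0 CPM before E2, then 45.8 and 49.2 (2 h), 46.7 and 49.0 (4 h) and 52.3 and 48.4 (8 h). The 2-h and 4-h libraries were below both untreated ones and the 8-h libraries overlapped them. None of these changes passed the test either, with log2 fold changes from -0.14 to -0.06 (SE 0.06 for each). The exons of JAG2 share 469 bases (7.33%) with a long noncoding RNA on the same strand, which has no entry of its own in the count tables.

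NOTCH1 (chromosome 9, 139388885 to 139440500, minus strand) encodes a receptor found in many epithelia. Ishikawa replicates held 197 and 209 CPM before E2, then 130.4 and 135 (2 h), 151 and 140.0 (4 h) and 129 and 156 (8 h). Every treated library was below both untreated ones. NOTCH1 fell 1.53-fold at 2 h (log2 fold change of -0.61, SE 0.08, edgeR adjusted p = 0.00011) and stayed lower at 4 h (-0.48, SE 0.08) and 8 h (-0.51, SE 0.08, edgeR adjusted p = 0.000332). With the later libraries as 1 group the value was -0.49.

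In T-47D cells NOTCH1 was lower than at 0 h in both 2-h libraries and higher in both 8-h libraries. Its replicates held 33.3 and 33.8 CPM before E2, then 29.6 and 31.6 (2 h), 32.4 and 34.4 (4 h) and 38.5 and 35.9 (8 h). No comparison with 0 h passed the test (-0.13, -0.01 and 0.15). From 2 h to 8 h it rose by 0.28 (SE 0.07, edgeR adjusted p = 0.00573), a call that was lost without T-47D 2 h replicate 1 (0.23, edgeR adjusted p = 0.112) or T-47D 8 h replicate 1 (0.22, edgeR adjusted p = 0.0649).

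NOTCH2 (chromosome 1, 120454176 to 120643366, minus strand) was the receptor with the most counts in both lines. Ishikawa replicates held 271 and 272 CPM before E2, then 265 and 270 (2 h), 264 and 249 (4 h) and 245 and 270.3 (8 h), and no change passed the test (-0.02, -0.08 and -0.08, and -0.08 with the later libraries as 1 group). T-47D replicates held 460 and 504 CPM before E2 (459.8 for the lower one), then 447 and 433 (2 h), 439 and 448 (4 h) and 434 and 431 (8 h). NOTCH2 fell at 8 h in T-47D cells by 0.16 on the log2 scale, at -0.16 (SE 0.04, edgeR adjusted p = 0.0101), the smallest change that passed among these genes. The call was lost without T-47D 0 h replicate 2 (-0.09, edgeR adjusted p = 0.214) or T-47D 8 h replicate 2 (-0.14, edgeR adjusted p = 0.0505). The 2-h and 4-h values, -0.13 and -0.12, did not pass (edgeR adjusted p = 0.0662 and 0.0544), but both passed with DESeq2 (adjusted p = 0.0442 and 0.0377), with no count filter (edgeR adjusted p = 0.0411 and 0.0376) and without T-47D 0 h replicate 1 (-0.18 at each time, edgeR adjusted p = 0.0120 and 0.00886). The 4-h value also passed without T-47D 8 h replicate 1 (-0.11, edgeR adjusted p = 0.0486) or replicate 2 (-0.11, edgeR adjusted p = 0.0474). The partial copy NOTCH2NL has its own row with 1347 to 2122 counts in Ishikawa and 3331 to 5030 in T-47D libraries, and reads that fit both genes make the NOTCH2 values uncertain. In T-47D cells NOTCH2NL was also lower after E2, with 94.7 and 97.0 CPM before E2 and 82.4 and 78.9 at 8 h. Its Ishikawa replicates held 37.1 and 37.9 CPM before E2 and 36.0 and 35.9 at 8 h. The part of these reads in the NOTCH2 values was not tested.

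NOTCH3 (chromosome 19, 15269849 to 15311806, minus strand) was the receptor that fell in both lines. Ishikawa replicates held 239 and 262 CPM before E2, then 223 and 223 (2 h), 138 and 191 (4 h) and 175 and 148 (8 h). All treated libraries were below both untreated ones, and the replicates of the later times were far apart. The change at 2 h did not pass the test (-0.17, SE 0.11, edgeR adjusted p = 0.473), so that NOTCH3 was a Late Down gene there, with -0.61 at 4 h (SE 0.11, edgeR adjusted p = 0.00174) and -0.63 at 8 h (SE 0.11, edgeR adjusted p = 0.00102). Without Ishikawa 4 h replicate 1 the 4-h value was -0.40 (edgeR adjusted p = 0.0136), and without replicate 2 it was -0.85. As 1 group, the later libraries gave -0.62 (edgeR adjusted p = 0.000139). The difference between 8 h and 2 h was -0.46 (SE 0.11, edgeR adjusted p = 0.0394). It was lost without Ishikawa 0 h replicate 1 (edgeR adjusted p = 0.0612) or replicate 2 (0.0618), Ishikawa 2 h replicate 1 (0.192) or replicate 2 (0.221), or Ishikawa 8 h replicate 2 (0.314, with a value of -0.35), and with DESeq2 (0.168).

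In T-47D cells the NOTCH3 replicates held 333 and 358 CPM before E2, then 281 and 287 (2 h), 264 and 274 (4 h) and 260.2 and 233 (8 h). The groups did not overlap, and the level was lower at each later time. NOTCH3 fell 1.22-fold at 2 h (-0.28, SE 0.05, edgeR adjusted p = 0.000976), 1.28-fold at 4 h (-0.36, SE 0.05) and 1.40-fold at 8 h (-0.49, SE 0.05, edgeR adjusted p = 9.85e-07). The further fall from 2 h to 8 h was -0.20 (SE 0.05, edgeR adjusted p = 0.00988). That call was lost without T-47D 2 h replicate 1 (-0.22, edgeR adjusted p = 0.0503) or replicate 2 (-0.20, edgeR adjusted p = 0.0941), or without T-47D 8 h replicate 2 (-0.13, edgeR adjusted p = 0.0939).

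HES1 (chromosome 3, 193853937 to 193856521, plus strand), the repressor whose promoter with its RBPJ letters is shown above, was the target that fell in both lines at all 3 times. Ishikawa replicates held 70.1 and 74.9 CPM before E2, then 39.2 and 43.7 (2 h), 45.4 and 44.6 (4 h) and 48.0 and 49.6 (8 h). No treated library reached an untreated one. HES1 fell 1.75-fold at 2 h (log2 fold change of -0.81, SE 0.07, edgeR adjusted p = 2.19e-06), 1.61-fold at 4 h (-0.69, SE 0.07) and 1.49-fold at 8 h (-0.57, SE 0.07, edgeR adjusted p = 5.12e-05). The 4 later libraries as 1 group gave -0.63. The difference between 8 h and 2 h, 0.23, did not pass the test (edgeR adjusted p = 0.107).

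In T-47D cells HES1 replicates held 44.01 and 47.8 CPM before E2, then 27.7 and 26.3 (2 h), 25.5 and 27.0 (4 h) and 22.8 and 22.6 (8 h). The level fell 1.70-fold at 2 h (-0.77, SE 0.07, edgeR adjusted p = 2.82e-07), 1.75-fold at 4 h (-0.81, SE 0.07) and 2.02-fold at 8 h (-1.02, SE 0.07, edgeR adjusted p = 4.24e-09). The 8-h replicates were the lowest of the line. The difference between 8 h and 2 h was -0.25 (SE 0.07, edgeR adjusted p = 0.0202), and it no longer passed without T-47D 2 h replicate 1 (-0.21, edgeR adjusted p = 0.171) or replicate 2 (-0.29, edgeR adjusted p = 0.0551), or without T-47D 8 h replicate 1 (-0.27, edgeR adjusted p = 0.0516) or replicate 2 (-0.24, edgeR adjusted p = 0.0708).

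HEY2 (chromosome 6, 126068810 to 126082415, plus strand), a HEY family repressor with RBPJ letters at 2 places in its window, was the gene of the set that rose against 0 h. T-47D replicates held 2.16 and 1.65 CPM before E2, then 5.97 and 7.93 (2 h), 7.19 and 5.68 (4 h) and 8.24 and 7.81 (8 h). These values rest on 96 and 68 counts without E2 and 287 to 462 with it. All treated libraries were above both untreated ones. HEY2 rose 3.63-fold at 2 h (log2 fold change of 1.86, SE 0.18, edgeR adjusted p = 9.46e-07), 3.38-fold at 4 h (1.76, SE 0.18) and 4.20-fold at 8 h (2.07, SE 0.18, edgeR adjusted p = 9.02e-08), an Early Up pattern. The direction was opposite to that of HES1 in the same libraries.

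In Ishikawa cells HEY2 counts were 51 to 94 per library, and its replicates held 1.11 and 1.16 CPM before E2, then 1.28 and 1.68 (2 h), 1.76 and 1.91 (4 h) and 1.60 and 1.85 (8 h). Treated libraries were again above both untreated ones, but no time point passed the test alone (0.39, 0.70 and 0.60, edgeR adjusted p = 0.481, 0.0829 and 0.106). With the 4-h and 8-h libraries as 1 group, the log2 fold change of 0.65 passed (edgeR adjusted p = 0.0378).

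HES4 (chromosome 1, 934342 to 935552, minus strand), a HES family gene whose window also held the RBPJ letters, did not pass the test in either line. Ishikawa libraries ranged from 11.4 to 14.7 CPM, with groups that overlapped at every time and log2 fold changes of 0.06, 0.01 and -0.06 (SE 0.13 for each), or -0.0260 with the later libraries as 1 group. T-47D libraries ranged from 32.1 to 36.1 CPM, with log2 fold changes of 0.07, 0.04 and 0.07 (SE 0.07 for each). The 3 targets with RBPJ letters thus gave a gene that fell, a gene that rose in T-47D cells and a gene without a change that passed the test.

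HEY1 (chromosome 8, 80674606 to 80680092, minus strand), another HEY family repressor, had few counts. Ishikawa libraries held 43 to 80 counts, from 1.02 to 1.98 CPM, and the log2 fold changes of -0.47, 0.07 and -0.10 had SEs of 0.29 to 0.30 and did not pass the test, nor did the value of -0.0191 with the later libraries as 1 group. T-47D libraries held 2 to 12 counts, below the count filter, so that no change could be tested there. Missing the test does not show that the HEY1 level was the same.

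**Figure D3:**
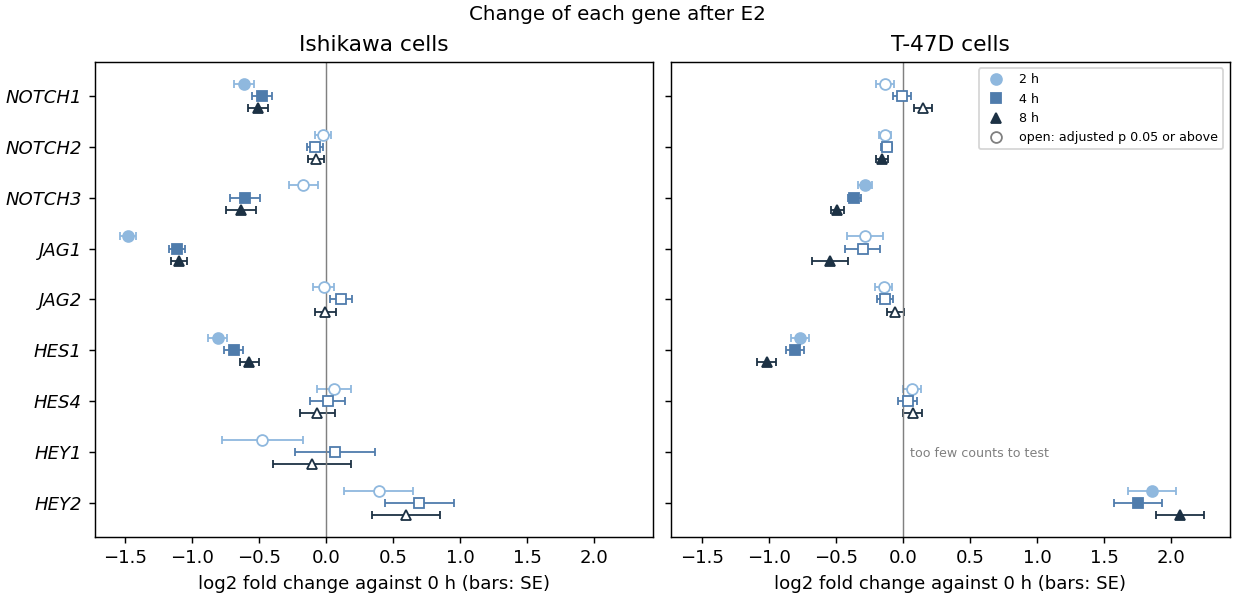
Log2 fold change of each gene against 0 h with its SE, at 2, 4 and 8 h, for Ishikawa (left) and T-47D cells (right), with filled symbols for an edgeR adjusted p under 0.05 and open ones for the rest. JAG1 reached -1.48 at 2 h in Ishikawa cells, HES1 lay left of 0 in both panels at every time, and HEY2 lay near 2 in T-47D cells at every time.

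Whether E2 acted differently in the lines was tested as the interaction of line and time over all 16 libraries, with positive values where the T-47D response was the higher one. At 2 h and at 4 h, 3 of the 9 genes passed, and at 8 h 4 did, where 2.67%, 6.03% and 10% of the 17090 genes tested passed. JAG1, NOTCH1 and HEY2 passed at each time. The JAG1 decrease was larger in Ishikawa cells, by 1.21 at 2 h (SE 0.12, edgeR adjusted p = 1.37e-06), 0.82 at 4 h and 0.55 at 8 h on the log2 scale. At 8 h this rested on T-47D 8 h replicate 2, without which the difference was 0.42 (edgeR adjusted p = 0.0710). NOTCH1 differed by 0.49, 0.48 and 0.66, and HEY2 by 1.48, 1.07 and 1.47. The HEY2 difference at 4 h was near the threshold (edgeR adjusted p = 0.0446) and was lost in 15 of 26 alternative fits.

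For HES1 the difference between the lines did not pass the test at 2 h (0.06, SE 0.10) or 4 h (-0.11, SE 0.10). At 8 h the decrease was larger in T-47D cells (-0.45, SE 0.10, edgeR adjusted p = 0.00484), but not with the 4-h and 8-h libraries of each line as 1 group (-0.27, edgeR adjusted p = 0.12). For NOTCH3, which fell in both lines, the differences of -0.10, 0.26 and 0.14 (SE 0.14 for each) did not pass. A difference that missed the threshold does not show equal responses. At 2 h, the interaction of NOTCH1 was lost without Ishikawa 2 h replicate 1 (0.43, edgeR adjusted p = 0.0912) or T-47D 2 h replicate 2 (0.45, edgeR adjusted p = 0.0745), and that of HEY2 without Ishikawa 2 h replicate 1 (1.27, edgeR adjusted p = 0.0692) or T-47D 0 h replicate 2 (1.30, edgeR adjusted p = 0.0516).

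Changes after 2 h were tested as 8 h against 2 h. In Ishikawa cells, 2 of the 9 genes passed, JAG1 upward and NOTCH3 downward, where 2.24% of all genes did. In T-47D cells, 3 of the 8 genes passed, NOTCH1 upward and NOTCH3 and HES1 downward, where 16.8% of all genes did. Each of these 5 calls was lost when some single library was left out, as given with each gene.

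The rest of the pathway was taken from a list of 64 genes in 7 groups, also chosen with earlier results of these data known. Of these genes, 63 were in the tables, 57 passed the count filter in Ishikawa and 54 in T-47D cells. In Ishikawa cells, 6, 6 and 9 of the list rose at 2, 4 and 8 h, which is 10.53%, 10.53% and 15.8% of those tested, against 2.61%, 7.66% and 12% of all genes. There 2, 11 and 11 fell, or 3.51%, 19.3% and 19.3%, against 1.74%, 6.6% and 10.1% of all genes. In T-47D cells, 3, 5 and 5 rose, or 5.56%, 9.26% and 9.26%, against 4.9%, 11.1% and 15.4% of all genes. Those that fell there numbered 4, 12 and 15, or 7.41%, 22.2% and 27.8%, against 4.4%, 10.4% and 14.3% of all genes. At 8 h the median log2 fold change of the list was -0.04 (Ishikawa) and -0.10 (T-47D). Some of these counts rest on single libraries. At 2 h the Ishikawa total of 8 was 5 without Ishikawa 2 h replicate 2, and the T-47D total of 7 was 4 without either 2-h replicate. The Ishikawa 8-h total of 20 was 12 without Ishikawa 0 h replicate 2, and the T-47D 4-h total of 17 was 11 without T-47D 4 h replicate 1.

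Among other HES family genes, HES2, a basic helix-loop-helix repressor, rose at all 3 times in Ishikawa cells. Its replicates held 56.4 and 60.3 CPM before E2, then 200 and 202 (2 h), 251 and 219 (4 h) and 216 and 235 (8 h). HES2 rose 3.45-fold at 2 h (log2 fold change of 1.79, SE 0.07, edgeR adjusted p = 2.78e-10), 4.02-fold at 4 h and 3.87-fold at 8 h, and with the later libraries as 1 group the log2 fold change was 1.98. In T-47D cells its libraries ranged from 1.32 to 2.45 CPM and no change passed the test. The response differed between the lines by -1.90 at 2 h (SE 0.20, edgeR adjusted p = 3.08e-06), -2.21 at 4 h and -2.48 at 8 h. A HES or HEY gene thus rose in each line, HES2 in Ishikawa and HEY2 in T-47D cells, while HES1 fell in both. In Ishikawa cells HEY2 also passed as a rise with the 4-h and 8-h libraries as 1 group (0.65, edgeR adjusted p = 0.0378). HEYL, which is closely related to the HEY genes, fell at 4 h in Ishikawa cells (-0.51, SE 0.10, edgeR adjusted p = 0.00366) and 8 h (-0.38, SE 0.10), or -0.44 with these libraries as 1 group. It had 0 counts in all 8 T-47D libraries. A count of 0 does not exclude a low level, taken here as an expected count of up to 3 per library.

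The negative regulator NRARP, a Notch target that limits the active receptor complex, fell in Ishikawa cells together with HES1. Its replicates held 69.1 and 72.0 CPM before E2, then 47.6 and 44.1 (2 h), 32.9 and 41.7 (4 h) and 38.5 and 38.1 (8 h). The log2 fold changes were -0.62 at 2 h (SE 0.09, edgeR adjusted p = 0.000402), -0.92 at 4 h (SE 0.09) and -0.88 at 8 h (SE 0.09). In T-47D cells, where HES1 also fell, NRARP libraries ranged from 35.4 to 44.1 CPM and no change from 0 h passed the test (-0.21, -0.02 and 0.07). The response differed between the lines at 4 h (0.92, SE 0.12, edgeR adjusted p = 2.69e-05) and 8 h (0.95, SE 0.12), and at 2 h the difference of 0.43 did not pass (edgeR adjusted p = 0.0620). NRARP was listed in a group of negative regulators and turnover genes. LNX1, a ubiquitin ligase of NUMB listed there for turnover, fell at 4 h (-0.49, SE 0.11) and 8 h (-0.52, SE 0.11) in Ishikawa cells. T-47D cells also had a fall of LNX1 at 8 h (-0.43, SE 0.12). With the later Ishikawa libraries as 1 group the LNX1 value was -0.50, and that of NRARP -0.90. NUMBL, a relative of the Notch inhibitor NUMB, rose in T-47D cells, from 13.7 and 15.2 CPM at 0 h to 21.0 and 22.4 at 2 h (0.59, SE 0.09, edgeR adjusted p = 0.00023).

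The Fringe enzymes add sugars to the receptors and alter which ligands they answer to. LFNG rose in Ishikawa cells from 19.7 and 21.7 CPM at 0 h to 30.7 and 31.7 at 2 h (0.59, SE 0.08, edgeR adjusted p = 0.000332), and its log2 fold change was 0.72 at 4 h, 0.62 at 8 h and 0.67 with these later libraries as 1 group. In T-47D cells it went the other way, from 10.1 and 8.95 CPM at 0 h to 7.52 and 6.33 at 8 h (-0.46, SE 0.12, edgeR adjusted p = 0.00655). The interaction at 8 h was -1.08 (SE 0.14, edgeR adjusted p = 2.85e-05). MFNG also rose in Ishikawa cells, from 27 and 52 counts at 0 h to 96 and 192 at 2 h (1.77, SE 0.33, edgeR adjusted p = 0.00362), with 1.55 over the later libraries as 1 group.

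Among ligands and nuclear partners, DLL1, a Delta-like ligand, fell in T-47D cells at 4 h (-0.49, SE 0.14) and 8 h (-0.63, SE 0.14, edgeR adjusted p = 0.00221). MAML2, a Mastermind coactivator, fell at 4 h and 8 h in both lines (at 8 h, -0.73, SE 0.10 in Ishikawa and -0.64, SE 0.10 in T-47D cells). Groucho family corepressors, which HES proteins recruit, went in different directions. TLE1 fell in T-47D cells from 156 and 170.3 CPM to 113 in both libraries at 2 h (-0.53, SE 0.05, edgeR adjusted p = 9.84e-07), and TLE3 rose in Ishikawa cells from 48.8 and 53.2 CPM to 83.7 and 85.6 (0.73, SE 0.07, edgeR adjusted p = 4.03e-06). At 2 h TLE3 fell in T-47D cells (-0.24, SE 0.05), and the interaction was -0.95 (SE 0.08, edgeR adjusted p = 1.52e-07). PSEN2, a catalytic subunit of the receptor-cleaving secretase, rose at 4 h (0.59, SE 0.11) and 8 h (0.41, SE 0.11) in Ishikawa cells. With the later Ishikawa libraries as 1 group, the value was 0.50 for PSEN2, -0.74 for MAML2 and 0.37 for TLE3.

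**Figure D4:**
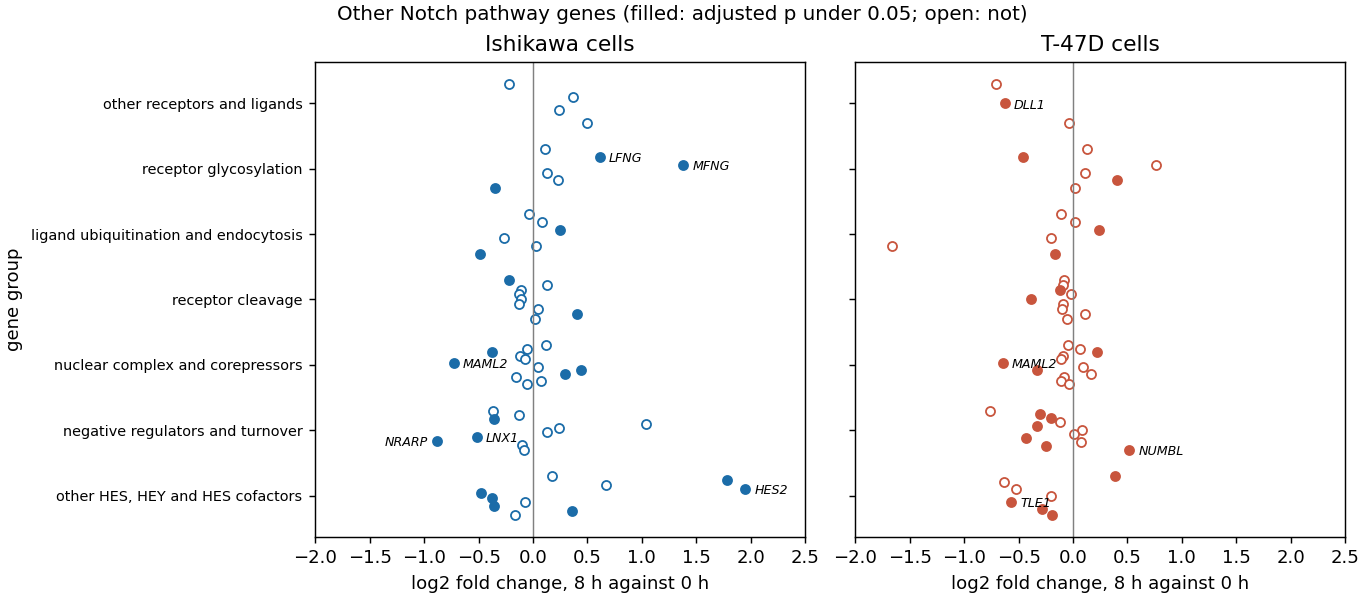
Log2 fold change at 8 h against 0 h of the other Notch pathway genes, with 1 point per gene in rows for the 7 groups, for Ishikawa (left) and T-47D cells (right), filled where the edgeR adjusted p was under 0.05. In Ishikawa cells 9 genes rose and 11 fell, with HES2 at 1.95 and NRARP at -0.88, and in T-47D cells 5 rose and 15 fell, with NUMBL at 0.52.

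The genes whose log2 CPM followed each responding gene most closely over the 8 libraries of a line were named by Pearson's r, among 13182 genes in Ishikawa and 13028 in T-47D cells. In Ishikawa cells these were PLEKHG1 (r = 0.994) for JAG1, GLIS2 (0.991) for NOTCH1, ORAI3 (0.997) for NOTCH3 and HMGA2 (0.984) for HES1. In T-47D cells they were PDK2 (0.997) for HES1, KIAA1522 (0.993) for NOTCH3, POLR1C (0.993) for HEY2, AP2B1 (0.989) for NOTCH2 and DEDD (0.969) for JAG1. These values are descriptions, since the libraries share treatment times and depth, and the highest of so many values is large by selection.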

How the data were processed

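Poly(A) RNA-seq libraries (directional kit) of 16 samples were grouped by the line and time point of their labels. Per the study's methods, HISAT2 was used for alignment to hg19, SAMtools for conversion and featureCounts for assignment to UCSC Known Genes. The authors deposited unnormalized counts, with a separate table for each line, and used DESeq2 on them. Versions, strand setting and treatment of read pairs are not given in the sources used here. Even numbers made up 71.2% to 74.6% of counts from 1 to 10, so a count need not be an independent fragment.

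The counts were fitted in R 4.3.3 with edgeR 4.0.16: filterByExpr (15787 and 15594 genes kept), TMM scaling, time as a factor of 4 levels per line, quasi-likelihood F-test, Benjamini-Hochberg adjusted p under 0.05 over all genes kept. Biological coefficients of variation were 6.45% (Ishikawa) and 5.02% (T-47D). Interactions and 0-h differences came from a joint fit of all 16 libraries. The SE was the size of the log2 fold change over the square root of F. CPM used TMM-scaled library sizes, and log2 CPM a prior count of 2. Gene positions and lengths came from GENCODE release 44 on GRCh37. The procedure was tested on simulated counts.

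The 9 genes and the pathway list were chosen with earlier results of these data known. Other pathway genes were named if they passed the test with an absolute log2 fold change of at least 0.5 against 0 h and a mean of at least 50 counts, and are then also given at other times or in the other line. Alternatives were DESeq2 1.42.0, RLE scaling, other count filters (none, or 10 counts or more in every library), a replicate block, only the libraries compared, adjusted p of 0.01 and 0.1, 4 h and 8 h as 1 group, and each library left out. Counts divided by 2 were added after seeing the data.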

Additional observations from a re-analysis of the deposited data

Results flagged for a closer look

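The response to E2 differed between the lines for 4 of the 9 genes at some time point. This was tested by the interaction of line and time in edgeR's quasi-likelihood fit of all 16 libraries. Among all 17090 genes tested, 2.67%, 6.03% and 10% passed at 2, 4 and 8 h. Values are the T-47D minus the Ishikawa log2 fold change. For JAG1 they were 1.21 at 2 h (SE 0.12, edgeR adjusted p = 1.37e-06), 0.82 at 4 h (SE 0.12, edgeR adjusted p = 8.6e-05) and 0.55 at 8 h (SE 0.12, edgeR adjusted p = 0.00502). For NOTCH1 they were 0.49 at 2 h (SE 0.11, edgeR adjusted p = 0.00853), 0.48 at 4 h (SE 0.10, edgeR adjusted p = 0.00648) and 0.66 at 8 h (SE 0.10, edgeR adjusted p = 0.000231). For HEY2 they were 1.48 at 2 h (SE 0.31, edgeR adjusted p = 0.0076), 1.07 at 4 h (SE 0.31, edgeR adjusted p = 0.0446) and 1.47 at 8 h (SE 0.31, edgeR adjusted p = 0.00322). For HES1 the value at 8 h was -0.45 (SE 0.10, edgeR adjusted p = 0.00484). Leaving out some single library ended the calls of NOTCH1 and HEY2 at 2 h and of JAG1 at 8 h. The HES1 call was lost with the 4-h and 8-h libraries of each line as 1 group (-0.27, edgeR adjusted p = 0.12).

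The HEY2 difference at 4 h was lost without any 1 of 9 libraries: both Ishikawa 0 h replicates, Ishikawa 2 h replicate 1, both Ishikawa 4 h replicates, T-47D 0 h replicate 2, T-47D 4 h replicate 1 and both T-47D 8 h replicates. Its value was then 0.87 to 1.11, with an edgeR adjusted p up to 0.182. The cause was not tested.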

How the results depend on the processing

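Of the 46 member changes and differences that passed the test, 13 lost their call in at least 1 alternative and none changed direction. Over the alternatives, 911 of 956 values kept both direction and call. These include the adjusted p limits of 0.01 and 0.1, which reuse the main fit. Their direction could not change, and the limit of 0.1 could not end a call. A value without an adjusted p was counted as keeping its call. Adjusted p limits of 0.01 and 0.1 changed the other pathway genes called in Ishikawa cells at 8 h from 20 to 13 and in T-47D cells at 2 h from 7 to 13. Of the 2 member calls for 8 h against 2 h in Ishikawa cells, 1 was left with an adjusted p limit of 0.01 and 1 with DESeq2. With 4 h and 8 h as 1 group, the T-47D member calls at 4 h went from 3 to 5, and the Ishikawa member calls at 4 h and 8 h from 4 to 5. With the replicate block, the interaction at 4 h had 2 member calls in place of 3, HEY2 being lost (1.07, edgeR adjusted p = 0.0560), and the block changed no other member call. Same-numbered libraries did not deviate together: the correlations of their deviations from group means ran from -0.115 to 0.0533 in Ishikawa and from -0.0547 to 0.0595 in T-47D cells. Leaving out 1 library gave 0 to 2 member calls for 8 h against 2 h in Ishikawa and 0 to 3 in T-47D cells, and 1 to 3 for the interaction at 2 h, with 1 without Ishikawa 2 h replicate 1. For the other pathway genes it gave 5 to 9 calls at 2 h and 12 to 20 at 8 h in Ishikawa cells, and 4 to 8 at 2 h and 11 to 18 at 4 h in T-47D cells. The share of all genes called was not computed for the alternatives, so these counts cannot be set against it. The causes were not tested.

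Values that changed sign were all from changes that did not pass the test. HES4 in Ishikawa cells at 4 h was -0.000764 with no filter and -0.0260 with 4 h and 8 h as 1 group. That grouping also gave -0.0191 for HEY1 at 4 h and 0.0543 for JAG2 at 8 h in Ishikawa cells, and 0.0728 for NOTCH1 at 4 h in T-47D cells. JAG2 in Ishikawa cells at 8 h was 0.000461 with DESeq2, and NOTCH1 in T-47D cells at 4 h was 0.0014 with no filter and 0.00103 with at least 10 counts in every library. Leaving out single libraries, HES4 ranged from -0.0538 to 0.19 at 2 h, -0.12 to 0.14 at 4 h and -0.23 to 0.0759 at 8 h in Ishikawa cells, and from -0.0147 to 0.10 at 4 h and -0.00965 to 0.16 at 8 h in T-47D cells. JAG2 ranged from -0.0877 to 0.0606, -0.00937 to 0.22 and -0.11 to 0.0897 at 2, 4 and 8 h in Ishikawa cells and from -0.12 to 0.0178 at 8 h in T-47D cells. HEY1 ranged from -0.36 to 0.39 at 4 h and -0.37 to 0.14 at 8 h in Ishikawa cells, and NOTCH1 from -0.0448 to 0.0443 at 4 h in T-47D cells. In Ishikawa cells HEY1 and HEY2 had 43 to 94 counts per library and SEs of 0.25 to 0.30.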
